A study of Mus musculus with 24 samples.

Results

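The muscle atrophy programme described here is a set of genes chosen by name from the count table: the FOXO transcription factors Foxo1 and Foxo3, the ubiquitin ligase genes Fbxo32, Trim63 and Fbxo30, the stress and steroid effectors Klf15, Ddit4 and Bnip3, and the growth inhibitor Mstn. Of 10 listed names, 9 were found among the 56748 genes of the table; the remaining name, Redd1, is an older name of Ddit4 and added no gene. The rule uses gene names only. All 9 had enough counts to be tested in myotubes, and 7 were tested in fibroblasts, where Trim63 and Mstn did not pass the filter on low counts.

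The study measured poly(A) RNA in 24 libraries, 8 groups of 3, to ask what aldosterone-treated muscle cells signal to fibroblasts. Primary myogenic progenitors, differentiated to myotubes in culture, and primary fibroblasts were taken from hindlimbs of neonatal C57BL/10 mice, called C57 here, or of C57BL/10-Dmdmdx mice, called mdx, the dystrophin-deficient model of Duchenne muscular dystrophy. The 4 myotube groups were C57 vehicle, C57 aldosterone, mdx vehicle and mdx aldosterone: 48 h with 1 µM aldosterone or 0.001% DMSO in medium with charcoal-stripped horse serum. This medium was then replaced by fresh medium without hormone, and the myotubes were lysed after a further 15 h, so that their RNA was taken after the hormone had been removed. The 4 fibroblast groups, C57 or mdx, were kept for 24 h in that conditioned medium, from vehicle- or from aldosterone-treated myotubes; hormone carried over with it is not measured in the sources used here. The line of a fibroblast culture and the line of the myotubes that made its medium cannot be told apart, because fibroblasts received medium from myotubes of their own line. The libraries of a group are labelled as biological replicates; the number of animals behind each is not stated, so p-values measure the spread between these cultures. Neonatal cultured myotubes are not adult muscle fibres, and they carry no nerve or load.

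In muscle loss, protein is removed mainly by the ubiquitin-proteasome system and by autophagy. FOXO factors, held out of the nucleus when insulin or IGF-1 signalling through AKT is active, switch on Fbxo32 (atrogin-1, also MAFbx) and Trim63 (MuRF1), the muscle ubiquitin ligases that mark proteins for degradation and that rise in many forms of atrophy. Glucocorticoids induce Trim63, Klf15 and Ddit4 in muscle through the glucocorticoid receptor; the mineralocorticoid receptor, which aldosterone binds, recognises similar DNA, and aldosterone at high concentration can also bind the glucocorticoid receptor. Myostatin, the product of Mstn, acts on muscle through activin receptors and SMAD proteins and restrains growth.

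Library totals were 14133165 to 31144746 counts in myotubes and 16964960 to 42698139 in fibroblasts. Levels are given as CPM, counts scaled to library size, on a common scale for all 24 libraries; RPKM, which divides CPM by gene length in kilobases, is used where genes are compared with each other. Dmd, the gene mutated in mdx, was lower in every mdx library than in every C57 library of the same cell type (myotubes 35.3 to 70.1 against 352 to 485 CPM, fibroblasts 7.28 to 12.2 against 23.1 to 37.0 CPM). The 15 sarcomere and fusion genes used as myotube markers summed to between 27520 and 45376 CPM in myotube libraries and between 14.8 and 150 CPM in fibroblast libraries. The 10 fibroblast markers summed to between 356 and 4889 CPM in myotube libraries and between 15757 and 28131 CPM in fibroblast libraries; of them, Tcf21 was at 0 counts in all 24 libraries. In bulk samples such as these, fewer cells of a type and less RNA per cell cannot be told apart.

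Because the question here is how a steroid acts on these genes, the upstream sequences of the members were searched for short receptor and FOXO motifs. RefSeq promoter entries were found for 8 of the 10 listed names, on the build GRCm38.p6, which is not the build of the counts; Fbxo32 had no entry. Of the 250 bases before each start site, those of Trim63 alone among the matched members held the FOXO letters TGTTTAC (or GTAAACA on the other strand), 194 to 188 bases before the start, and Trim63 alone held the full palindrome bound by the glucocorticoid and mineralocorticoid receptors, GAACANNNTGTTC, 208 to 196 bases before the start. The Trim63 window lies on the plus strand at chr4:134314870-134315119 and is printed from 5′ to 3′ because both motifs, in capitals, stand next to each other in it:
Trim63: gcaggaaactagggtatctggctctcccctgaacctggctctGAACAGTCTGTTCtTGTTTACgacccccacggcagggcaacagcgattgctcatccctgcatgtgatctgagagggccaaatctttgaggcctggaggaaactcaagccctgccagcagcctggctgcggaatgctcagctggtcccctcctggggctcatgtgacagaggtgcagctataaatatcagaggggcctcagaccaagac
The palindrome, which as a pattern with N reads the same on both strands, was found in 13 of 32851 promoter windows of this length (0.0396%). The FOXO letters were found in 3.17% of them. The letters ACGTG, the core bound by hypoxia-inducible factors, were found on either strand in the windows of Klf15, Bnip3 and Ddit4, and in 16.6% of all windows. These are matches of letters, not measured binding.

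The first comparison set myotubes against fibroblasts. Trim63 and Mstn were almost entirely myotube transcripts, Fbxo32 and Klf15 were several-fold higher in myotubes, and Ddit4 was higher in fibroblasts. In the C57 vehicle groups, 6 members were higher and 1 was lower in myotubes (edgeR quasi-likelihood test, Benjamini-Hochberg adjusted p below 0.05 over 17864 genes); of all genes tested, 36.7% were higher and 38% were lower, so a call in this comparison is common. In the mdx vehicle groups the counts were again 6 and 1, beside 35.5% and 35.1% of all genes. Trim63 and Mstn, among the 6 in both lines, did not pass the filter on low counts in fibroblasts alone. They entered this fit through the myotube libraries, so their calls are not separate support for a difference. The cell types also differed in the medium they were kept in.

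Among the ligases, Trim63 (ENSMUSG00000028834, chr4:134042431-134056940 on mm39) stood at 115, 101 and 102 CPM in C57 vehicle myotubes and at 0.378, 0.0659 and 0.301 CPM in C57 fibroblasts, a log2 difference of 8.64 ± 0.33 (SE; adjusted p = 3.49e-14). The fibroblast values rest on 27 counts in all 3 libraries together, and the call, as said above, is not separate support for a difference. In mdx the log2 difference was 8.38. Fbxo32 (ENSMUSG00000022358, chr15:58039275-58078328) stood at 139, 100 and 114 CPM in C57 vehicle myotubes and at 18.3, 16.8 and 13.6 CPM in fibroblasts, 7.24-fold higher (log2 2.86 ± 0.17, adjusted p = 1.06e-11), and 6.53-fold higher in mdx. The myotube and fibroblast libraries of both genes lay far apart. Fbxo30 (ENSMUSG00000047648, chr10:11157074-11173796), which encodes a ligase of the F-box family also called MUSA1, differed far less: 57.8 ± 4.56 against 41.1 ± 0.953 CPM (SD, n = 3 each), 1.41-fold (adjusted p = 0.00029), and 1.25-fold in mdx (adjusted p = 0.0123). The mdx call of Fbxo30 was lost without mdx vehicle myotube replicate 1 (adjusted p = 0.0576) or without mdx vehicle fibroblast replicate 1 (adjusted p = 0.0767).

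Of the FOXO factors, Foxo3 (ENSMUSG00000048756, chr10:42057837-42152751) stood at a similar level in both cell types, 123 ± 9.21 CPM in C57 vehicle myotubes and 120 ± 8.43 CPM in fibroblasts, with a 95% interval of the log2 difference from -0.19 to 0.28. Foxo1 (ENSMUSG00000044167, chr3:52175757-52260642) was 1.35-fold higher in C57 myotubes (73.6 ± 10.5 against 54.6 ± 4.50 CPM, adjusted p = 0.000715). In mdx the Foxo1 difference was 1.18-fold with an adjusted p of 0.0467, which rose past the threshold without the filter on low counts (0.0916) and when any of 13 single libraries was left out (0.0506 to 0.182). Both FOXO factors were well detected in both cell types. Their place in the cell was not measured, and their part in the Trim63 difference was not tested.

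Klf15 (ENSMUSG00000030087, chr6:90439558-90452220), a Krüppel-like transcription factor and glucocorticoid receptor target that promotes amino acid breakdown, stood at 14.3, 13.9 and 10.0 CPM in C57 vehicle myotubes and at 1.91, 1.65 and 2.64 CPM in fibroblasts, 6.20-fold higher (adjusted p = 3.69e-08; 6.13-fold in mdx). Ddit4 (ENSMUSG00000020108, chr10:59785491-59787656), whose product REDD1 restrains mTORC1 under stress, was the member with the opposite direction: 30.3, 38.6 and 35.7 CPM in C57 vehicle myotubes against 91.1, 64.3 and 71.1 CPM in fibroblasts (log2 -1.12 ± 0.17, adjusted p = 6.7e-06). In mdx the Ddit4 log2 difference was -0.61 (adjusted p = 0.00324). Bnip3 (ENSMUSG00000078566, chr7:138492565-138511248), a mitophagy receptor that FOXO3 and hypoxia induce, did not pass the test in either line; its log2 differences were 0.18 (C57, 95% interval -0.10 to 0.46) and -0.12 (mdx, -0.40 to 0.16). Mstn (ENSMUSG00000026100, chr1:53100799-53107238) was low even in C57 vehicle myotubes, at 4.43, 3.87 and 4.21 CPM, and stood at 0 to 14 counts in each fibroblast library. Its log2 differences were 5.83 ± 0.76 in C57 and 3.79 ± 0.68 in mdx. Both were called, but Mstn entered the fit through the myotube libraries, so these calls are not separate support. The C57 value was 6.51 without C57 vehicle fibroblast replicate 3. The mdx value was 2.67 without mdx vehicle myotube replicate 1 and 4.82 without mdx vehicle fibroblast replicate 2.

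**Figure D1:**
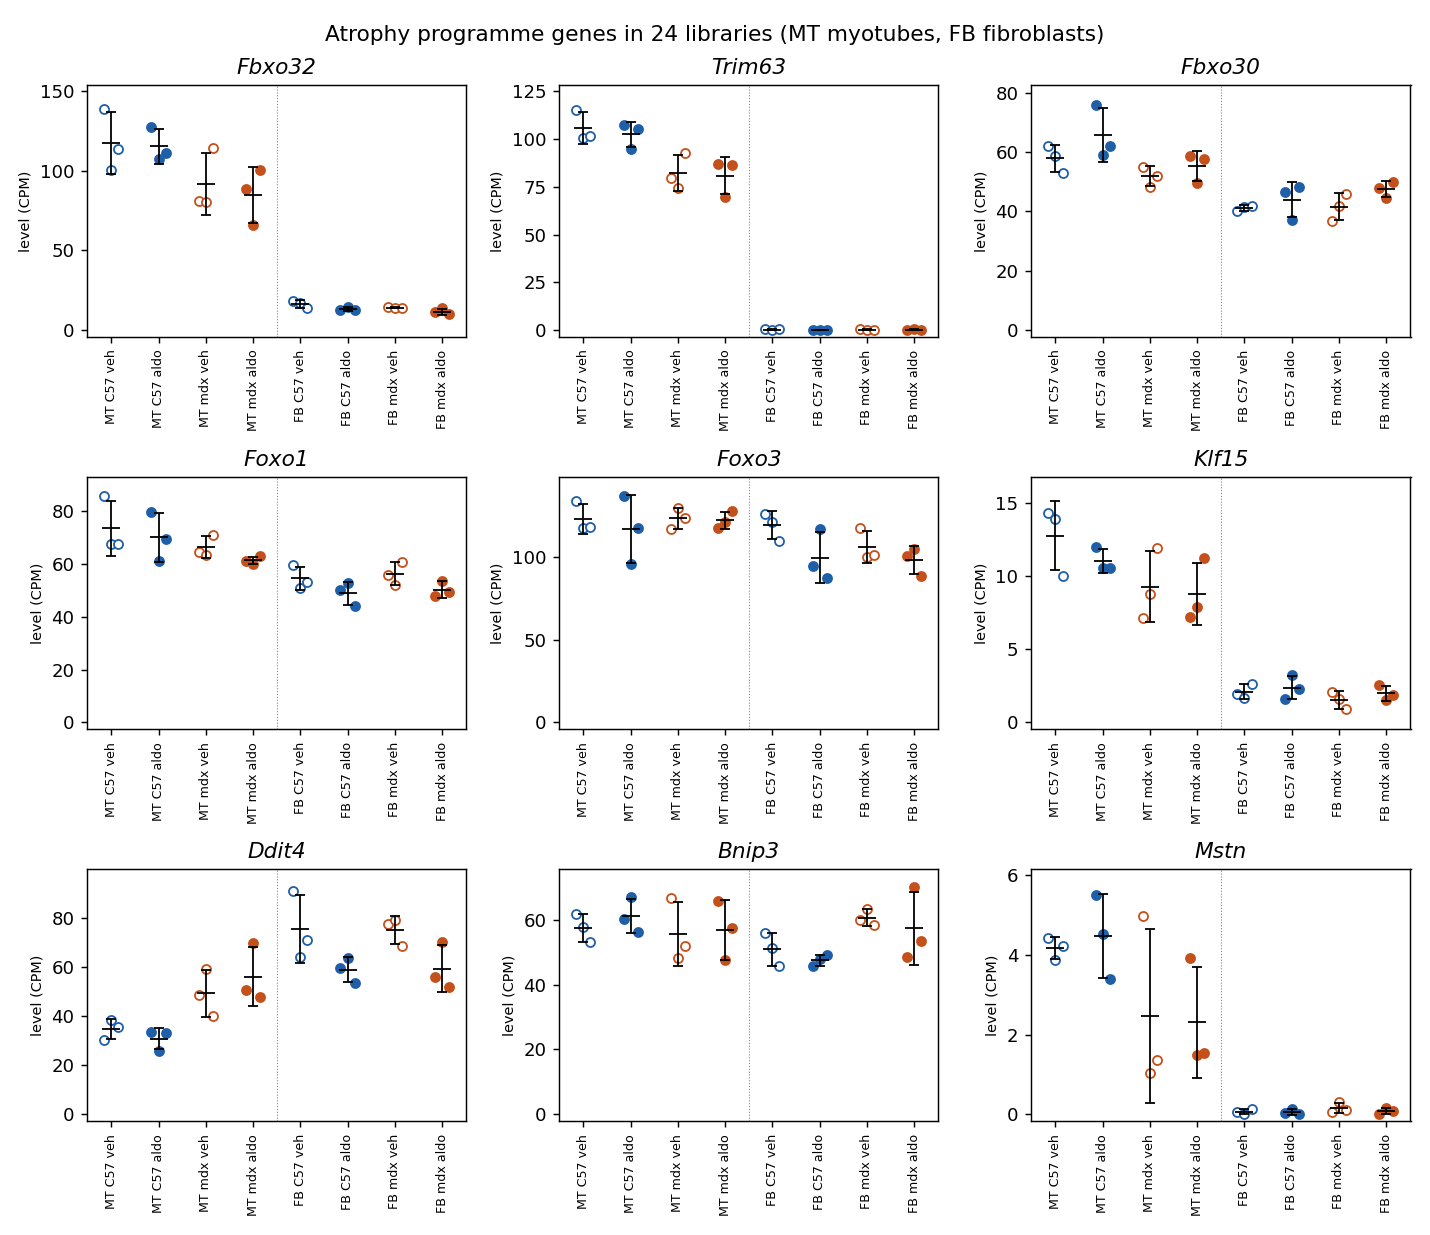
Level in CPM (y axis, linear) of each atrophy gene in the 24 libraries, by cell type, line and treatment; open points are vehicle, filled points aldosterone, blue C57 and orange mdx, and bars show the mean ± SD of 3 libraries. Fbxo32, Trim63, Klf15 and Mstn separate myotubes from fibroblasts, Ddit4 is lowest in C57 myotubes, and Foxo3 stands at a similar level in all groups.

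Per gene length, Trim63 was the highest member in C57 vehicle myotubes, with 37.3 ± 2.89 RPKM, followed by Bnip3 with 25.4 ± 1.90 RPKM. Ddit4 (19.9 ± 2.41 RPKM), Fbxo32 (16.9 ± 2.80) and Foxo3 (16.3 ± 1.22) came next and did not differ beyond their spread. Fbxo30 (11.1 ± 0.877), Foxo1 (8.5 ± 1.21), Klf15 (4.57 ± 0.846) and Mstn (1.54 ± 0.106 RPKM) were lower. In C57 fibroblasts the order was led by Ddit4 (43 ± 7.92 RPKM), Bnip3 (22.5 ± 2.24) and Foxo3 (15.8 ± 1.11), and Fbxo32 was at 2.32 ± 0.345 RPKM.

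Lists of genes around the members are described by their counts between the cell types, which stand beside 36.7% higher and 38% lower of all genes in C57. Several lists lie near the share of all genes called in either direction, among them autophagy, mTORC1 and myostatin, and nothing particular to the lists is read from these counts. Of 19 proteasome and ubiquitin genes, 17 were higher and 1 was lower in C57 myotubes, among them Psme4, the proteasome activator PA200 (log2 1.90), and the ubiquitin-conjugating enzyme Ube2d1 (1.47). Of 16 other muscle ubiquitin ligases 8 were higher and 7 lower, with Trim55, the MuRF2 relative of Trim63 (8.99), and Asb2 (8.11) farthest apart. The 14 FOXO family and partner genes gave 7 higher and 5 lower, led by Foxo6 (5.84) and Pdk4 (3.46). Both acetylcholine receptor subunit genes Chrna1 (9.58) and Chrng (9.38) led the calpain, caspase and denervation-linked list, 9 higher and 1 lower of 11. The autophagy list gave 12 higher and 5 lower of 22, with the mitophagy kinase gene Pink1 (2.76) farthest apart. The mTORC1 list gave 8 and 2 of 13, led by the mTOR inhibitor gene Deptor (3.54) and the translation repressor gene Eif4ebp1 (0.97). The myostatin list gave 6 and 6 of 17, with Fstl1, a follistatin-like secreted protein, lower in myotubes (-2.27) and the receptor gene Acvr2b higher (2.25). The glucocorticoid-linked list gave 7 higher and 9 lower of 16, with Zbtb16 (5.26) and Gadd45a (3.30) highest in myotubes.

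The second comparison was aldosterone against vehicle in myotubes. None of the 9 members passed the test. The vehicle and aldosterone groups of every member overlapped in both lines, except those of Foxo1 in mdx (63.4 to 71.1 CPM with vehicle, 60.2 to 63.0 CPM with aldosterone). By edgeR, 0 of 9 were called in C57 (0.0127% of all 15763 genes), in mdx (0% of all genes; 542 genes at an unadjusted p below 0.05 and 19 by DESeq2) and in the mean of both lines (0.216%). No member had an unadjusted p below 0.05 in these 3 comparisons, and DESeq2 called 0 members in each. Cultures with the same number, C57 or mdx, deviated together, so a fit that pairs them is given too. No label states that pairing, and it is least clear between C57 cultures 2 and 3. The paired fit called 4.98% of all genes in C57, 2.33% in mdx and 8.96% in the mean, and again 0 of the 9 members in each. The difference of the aldosterone effect between the lines called 0 members without pairing (0% of all genes; 152 at an unadjusted p below 0.05, 0 by DESeq2) and 0 with pairing (0.0444%). No member had an unadjusted p below 0.05 for that difference without pairing, and DESeq2 called 0 members.

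The values of the ligases show this directly. In C57 vehicle cultures 1 to 3, Trim63 stood at 115, 101 and 102 CPM, and the same numbers with aldosterone gave 107, 94.7 and 105 CPM; in mdx it was 79.5, 74.6 and 92.5 CPM for vehicle, then 87.0, 69.5 and 86.2 CPM for aldosterone. Trim63 was therefore higher with aldosterone in 2 of 6 cultures, and its paired log2 change, the mean of both lines, was -0.03 with a 95% interval of -0.12 to 0.06. The RNA of Trim63 did not differ detectably at the time of lysis, after the hormone had been removed. Receptor binding at the palindrome printed above was not measured, and its part in the level of this gene was not tested. Fbxo32 in C57 was 139, 100 and 114 CPM for vehicle, 128, 107 and 111 CPM for aldosterone, and in mdx 80.9, 80.4 and 115 CPM, then 88.4, 66.0 and 101 CPM. Its groups overlapped in both lines, and its paired log2 change was -0.06 (95% interval -0.16 to 0.04). In linear terms the paired intervals ran from 0.918-fold to 1.04-fold for Trim63 and from 0.892-fold to 1.03-fold for Fbxo32.

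Fbxo30 came closest to a call. In C57 the vehicle cultures gave 61.9, 58.7 and 52.9 CPM, the aldosterone cultures 76.0, 59.0 and 61.9 CPM; in mdx these were 55.0, 48.3 and 52.0 CPM, then 58.7, 49.6 and 57.7 CPM. Fbxo30 was higher with aldosterone in 6 of 6 cultures, by a small amount: its paired log2 change was 0.14 ± 0.05 (SE; adjusted p = 0.0723, against 0.735 without pairing). Without C57 culture 2 the paired change of Fbxo30 was 0.18 with an adjusted p of 0.00842, which passes the threshold.

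The remaining members gave paired log2 changes, as the mean of both lines, of -0.09 for Foxo1 (adjusted p = 0.247, lower in 5 of 6 cultures), -0.05 for Foxo3, -0.14 for Klf15, -0.00 for Ddit4, 0.06 for Bnip3 and 0.02 for Mstn. The 95% intervals of all 9 paired changes lay between -0.32 and 0.33. Ddit4 was lower with aldosterone in 2 of 3 C57 cultures (33.8, 25.8 and 33.1 CPM against 30.3, 38.6 and 35.7 with vehicle) and higher in 3 of 3 mdx cultures (50.6, 69.9 and 47.9 against 48.6, 59.4 and 40.1 CPM). The difference of the Ddit4 effect between the lines did not pass the test, and without C57 culture 1 its paired change in C57 was -0.35 with an adjusted p of 0.0469. The unpaired median log2 change of the 9 members was -0.04, beside 0.01 over all genes.

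**Figure D2:**
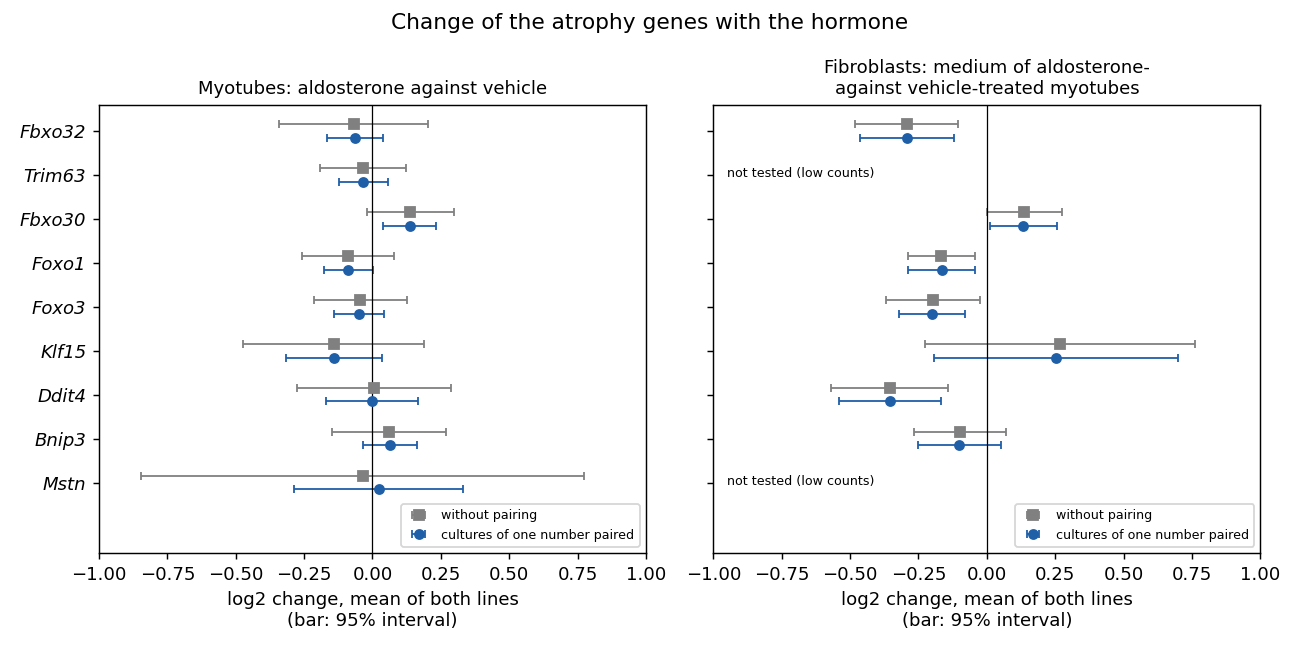
Log2 change of each atrophy gene (x axis, mean of both lines, bars 95% intervals) with aldosterone in myotubes (left) and with medium of aldosterone-treated myotubes in fibroblasts (right); grey squares are fits without pairing and blue circles fits that pair cultures of a number. In myotubes the 9 paired intervals lie between -0.32 and 0.33; in fibroblasts Ddit4 and Fbxo32 lie lowest, at -0.36 and -0.29 without pairing.

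Genes around the members were called in the same myotubes. In the paired mean of both lines, 17 genes of the 8 pathway lists rose and 10 fell, of 127 tested. This is 21.3% beside 8.96% of all genes. The lists were chosen with earlier results of these data known, so the shares are not a test of the lists. Without pairing 2 rose and 0 fell. Cell type markers also moved in that paired fit: 6 of 8 macrophage markers rose, 2 sarcomere and fusion markers rose and 4 fell of 14 tested, and 3 of 9 fibroblast markers fell. In the myoblast (5 tested), endothelial (5) and adipocyte (2) lists 1 marker each rose and 0 fell, and without pairing 0 markers of any list were called. The macrophage sum was 7.05, 194 and 113 CPM with vehicle and 5.18, 160 and 94.4 CPM with aldosterone in C57, lower in 3 of 3 cultures. In mdx it was 2.37, 16.5 and 6.34 against 2.81, 75.6 and 7.59 CPM, higher in 3 of 3. The part of these markers in the list changes was not tested. Of 16 glucocorticoid-linked genes 5 rose and 1 fell. Per1, a clock gene and direct receptor target, rose from 26.3 ± 1.87 to 36.8 ± 6.15 CPM (SD over 6 cultures; paired log2 0.47, adjusted p = 6.2e-06), and Fkbp5, a co-chaperone that restrains steroid receptors, rose from 17.9 ± 1.77 to 24.6 ± 1.36 CPM (0.46, adjusted p = 3.33e-05). Both were higher in 6 of 6 cultures and were also called without pairing (adjusted p = 0.0344 and 0.02). Glul, glutamine synthetase, rose by 0.29 on the log2 scale in the paired fit (adjusted p = 2.38e-05) and was not called by edgeR without pairing (adjusted p = 0.55). These steroid-responsive transcripts were named for the smallest adjusted p of their list, so their calls are not a control for the uncalled Trim63 and Fbxo32. Their changes were not tested against those of the ligases.

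Among the other muscle ubiquitin ligases 0 rose and 3 fell of 16, each lower in 6 of 6 cultures: Trim55 (paired log2 -0.25, adjusted p = 0.000114), Fbxl22 (-0.20, adjusted p = 0.0119) and Asb2 (-0.15, adjusted p = 0.033). Of 14 FOXO family and partner genes 2 rose, Cited2, a transcriptional co-regulator (0.22, adjusted p = 0.00169), and Irs2, an insulin receptor substrate (0.28, adjusted p = 0.00294), and 0 fell. In the mTORC1 list 4 rose and 0 fell of 13, and the 3 with the smallest p are known to restrain mTORC1 or translation: Sesn2 (0.28), Eif4ebp1 (0.20) and Deptor (0.16). Of 19 proteasome and ubiquitin genes 0 were called, and of 22 autophagy genes only Ctsb, cathepsin B, was, lower by 0.15 on the log2 scale (-0.15, adjusted p = 0.046).

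In the myostatin list 4 rose and 2 fell of 16 tested. Tll1, of the tolloid protease family that frees myostatin from its propeptide, rose 1.72-fold (paired, adjusted p = 1.04e-07), Smad7, an inhibitor of SMAD signalling, rose 1.26-fold, and Gdf11, the closest relative of myostatin, fell by 0.43 on the log2 scale (adjusted p = 0.000108). In the calpain, caspase and denervation-linked list 2 rose and 3 fell of 11: Capn3, the muscle calpain (-0.70), Chrng (-0.32) and Hdac4, a mediator of denervation signals (-0.21), were each lower in 6 of 6 cultures. Without pairing, Per1 and Fkbp5 were the 2 genes called among all 127.

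**Figure D3:**
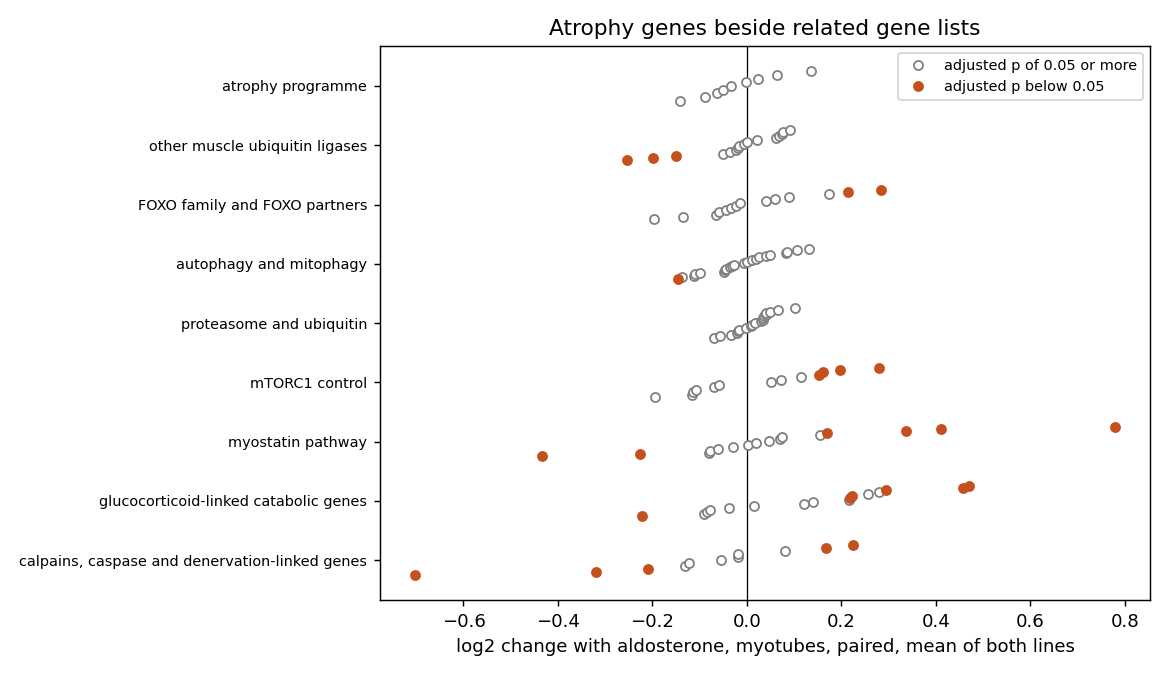
Paired log2 change with aldosterone in myotubes (x axis, mean of both lines) of each tested gene of the atrophy programme and of the 8 lists around it (rows); filled points passed the test. The atrophy programme has no filled point, while the ubiquitin ligase row has 3 to the left of 0 and the glucocorticoid-linked row has 5 to the right and 1 to the left.

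The third comparison concerned fibroblasts kept in medium of aldosterone-treated against vehicle-treated myotubes. None of the 7 tested members was called by edgeR, in C57 (0% of all 16671 genes, 1996 at an unadjusted p below 0.05, 71 by DESeq2), in mdx (0%, 818 and 0), in the mean of both lines (0.012%) or in the difference between the lines (0%, 391 and 0). At an unadjusted p below 0.05 there were 3 members in C57, 3 in mdx, 4 in the mean and 0 in the difference; DESeq2 called 1 member, Ddit4, in the mean (adjusted p = 0.0214) and 0 in the other 3. Over all genes the mean gave 2540 at an unadjusted p below 0.05 and 290 by DESeq2. In the pathway lists 0 of 126 genes tested were called in the mean.

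Ddit4 and Fbxo32 gave the lowest values of this comparison relative to their error. Ddit4 stood at 91.1, 64.3 and 71.1 CPM with vehicle medium and at 59.7, 63.7 and 53.5 CPM with aldosterone medium in C57 fibroblasts, and at 77.7, 79.4 and 68.5 against 56.2, 70.2 and 52.1 CPM in mdx. The Ddit4 groups did not overlap in C57 and overlapped in mdx, where aldosterone replicate 2 lay above vehicle replicate 3. Its log2 change, the mean of both lines, was -0.36 ± 0.10 (SE; unadjusted p = 0.00388, adjusted p = 0.194, lower in 6 of 6 same-numbered pairs). No label states these pairs. In C57 fibroblasts the correlation of deviations from group means was at most 0.121 within a number and reached 0.156 between different numbers. Fbxo32 stood at 18.3, 16.8 and 13.6 against 12.7, 14.4 and 12.6 CPM in C57, and at 14.6, 13.6 and 14 against 11.3, 13.6 and 9.89 CPM in mdx. It too was lower in 6 of 6 pairs, in mdx pair 2 by less than the rounding shown, with a log2 change of -0.29 ± 0.09 (adjusted p = 0.202).

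With all libraries kept, Ddit4 was called by DESeq2 (adjusted p = 0.0214) but not by edgeR. The paired edgeR fit called it without C57 pair 2 (adjusted p = 0.0109). The unpaired edgeR result for Ddit4 and Fbxo32 changed without mdx aldosterone fibroblast replicate 2. With that library left out, 950 genes were called in the mean of both lines in place of 2. Ddit4 (-0.42, adjusted p = 0.0262) and Fbxo32 (-0.36, adjusted p = 0.0266) then passed the test. That library had 40756528 counts, near the top of the range, and the highest sum of myotube markers among the fibroblast libraries, 150 CPM against 14.8 to 119 CPM in the other 11; it also held 18 of the 19 Trim63 counts of its group. The part of these values in the result was not tested. Fibroblast markers summed to 15757 to 23300 CPM with vehicle medium and to 23039 to 28131 CPM with aldosterone medium in C57, and to 17385 to 20642 against 16612 to 24305 CPM in mdx.

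The other tested members gave log2 changes, as the mean of both lines, of -0.20 for Foxo3 (adjusted p = 0.279), -0.17 for Foxo1 (adjusted p = 0.23), 0.14 for Fbxo30 (adjusted p = 0.33, higher in 5 of 6 pairs), 0.27 for Klf15 and -0.10 for Bnip3. The 95% intervals of the 7 changes lay between -0.57 and 0.76. Their median was -0.17, beside 0.00 over all genes. The difference between the change with hormone in myotubes and the change with conditioned medium in fibroblasts was tested directly: 0 of 9 were called (0.0728% of all genes; 0 members at an unadjusted p below 0.05 and 0 by DESeq2), with Ddit4 at a log2 difference of 0.35 (unadjusted p = 0.0502, adjusted p = 0.655).

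The fourth comparison set mdx against C57. In myotubes, edgeR called 0 of 9 members in the vehicle groups (0.362% of all genes; 3 members at an unadjusted p below 0.05, 0 by DESeq2) and 0 of 9 in the aldosterone groups (0.311%; 4 members at an unadjusted p below 0.05, 1 by DESeq2). Over all genes, 2273 of 15763 had an unadjusted p below 0.05 in the vehicle groups and 2469 in the aldosterone groups, and DESeq2 called 373 and 487. Trim63 and Ddit4 had groups that did not overlap with either treatment, Trim63 lower and Ddit4 higher in mdx; those of Fbxo32 and Fbxo30 did not overlap in the aldosterone groups and overlapped in the vehicle groups, and those of Klf15 overlapped with both. The aldosterone groups share culture numbers with the vehicle groups and are not an independent repeat. Here and in the other comparisons, the share of all genes whose groups did not overlap was not counted. Non-overlap of 3 against 3 libraries is therefore a description of these values and not a test.

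Trim63 stood at 74.6 to 92.5 CPM in the mdx vehicle libraries and at 101 to 115 CPM in the C57 vehicle libraries, with no overlap (log2 -0.38 ± 0.10, adjusted p = 0.163). In the aldosterone groups the log2 difference of Trim63 was -0.36 (adjusted p = 0.168), also with no overlap. Fbxo32 gave -0.37 ± 0.18 (vehicle, adjusted p = 0.368) and -0.46 (aldosterone, adjusted p = 0.257); mdx culture 3, at 115 and 101 CPM, was the highest mdx culture with either treatment. Klf15 gave -0.48 ± 0.21 and -0.35, and its mdx culture 3 was again the highest, at 11.9 and 11.2 CPM against 7.15 to 8.75 CPM in the other mdx libraries.

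Ddit4 ran the other way. Its mdx vehicle libraries stood at 48.6, 59.4 and 40.1 CPM and its C57 vehicle libraries at 30.3, 38.6 and 35.7 CPM, which did not overlap (1.41-fold, log2 0.49 ± 0.18, adjusted p = 0.274). In the aldosterone groups the values were 50.6, 69.9 and 47.9 against 33.8, 25.8 and 33.1 CPM, 1.80-fold (log2 0.85 ± 0.18, adjusted p = 0.0929 by edgeR and 0.00162 by DESeq2). In fibroblasts Ddit4 differed by 0.00 and 0.01 on the log2 scale, with a 95% interval of -0.30 to 0.30 in the vehicle groups. The difference of the line effect between myotubes and fibroblasts was 0.51 for Ddit4 (edgeR, unadjusted p = 0.0456, adjusted p = 0.408). Of 9 members edgeR called 0, beside 0.23% of all genes, and DESeq2 called 0, beside 279 genes. Ddit4 was the 1 member with an unadjusted p below 0.05, beside 2114 of 17864 genes.

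Mstn split the mdx cultures. Culture 1 stood at 4.98 CPM with vehicle and at 3.92 CPM with aldosterone, within the C57 range of 3.39 to 5.5 CPM. Cultures 2 and 3 stood at 1.05 to 1.53 CPM. Those values rest on few counts, 14 and 18 with vehicle and 23 and 25 with aldosterone, against 147 and 60 in culture 1. The log2 difference from C57 was -0.69 ± 0.52 in the vehicle groups (adjusted p = 0.57) and -0.97 in the aldosterone groups (adjusted p = 0.397), with intervals that reach from -2.14 to 0.45. Fbxo30 (-0.17 and -0.26), Foxo1 (-0.16 and -0.21), Foxo3 (-0.01 and 0.05) and Bnip3 (-0.06 and -0.12) differed less, and Foxo3 had an interval of -0.25 to 0.23 in the vehicle groups.

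**Figure D4:**
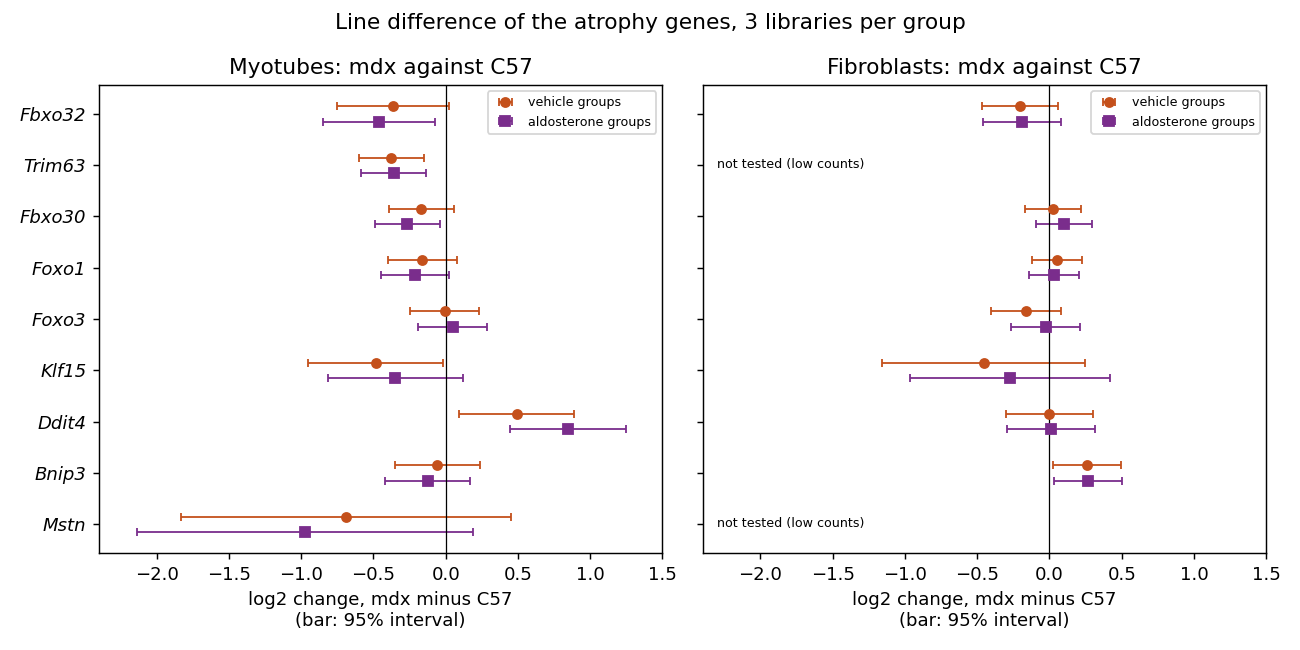
Log2 difference of mdx from C57 (x axis, bars 95% intervals) for each atrophy gene in myotubes (left) and fibroblasts (right), in vehicle (orange circles) and aldosterone (purple squares) groups of 3 libraries. In myotubes Trim63 lies at -0.38 and -0.36 and Ddit4 at 0.49 and 0.85, while in fibroblasts Ddit4 lies at 0.00 and 0.01.

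The make-up of the myotube cultures moved with line as well. Sarcomere and fusion markers summed to 38810, 40116 and 45376 CPM in C57 vehicle libraries and to 27960, 33103 and 41834 CPM in mdx vehicle libraries, with the highest mdx sum in culture 3. The 10 fibroblast markers summed to a median of 784 CPM in C57 vehicle and 1622 CPM in mdx vehicle myotubes, with ranges (356 to 1142 and 1386 to 4511 CPM) that did not overlap. Macrophage markers (8 genes) had medians of 113 and 6.34 CPM, with ranges that overlapped (7.05 to 194 and 2.37 to 16.5 CPM), and endothelial markers (5 genes) of 133 and 35.4 CPM, with ranges that did not (77.0 to 173 and 29.7 to 40.3 CPM). Apart from Tcf21, no gene of these 3 lists was at 0 in every library of either group.

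The members were also set against the sarcomere sum. Per 1000 CPM of sarcomere markers, Trim63 stood at 2.56 ± 0.0322 CPM in C57 vehicle and 2.44 ± 0.353 CPM in mdx vehicle myotubes, and Fbxo32 at 2.83 ± 0.237 and 2.69 ± 0.237 CPM. Klf15 stood at 0.308 ± 0.0542 and 0.268 ± 0.0149 CPM. For these 3 genes the ranges of both lines overlapped on that scale; those of Fbxo32 and Klf15 had overlapped in CPM too. On the same scale Foxo3 stood at 2.98 ± 0.0467 and 3.69 ± 0.646 CPM, Fbxo30 at 1.4 ± 0.102 and 1.56 ± 0.372 CPM and Foxo1 at 1.77 ± 0.106 and 1.97 ± 0.308 CPM. Bnip3 stood at 1.39 ± 0.085 and 1.69 ± 0.609 CPM and Mstn at 0.101 ± 0.00381 and 0.0809 ± 0.0842 CPM. The ranges of these 5 overlapped too. Ddit4 stood at 0.851 ± 0.167 and 1.5 ± 0.467 CPM, with the highest C57 library (0.995) just above the lowest mdx library (0.959). In the aldosterone groups Ddit4 stood at 0.734 ± 0.116 and 1.79 ± 0.649 CPM, and the lines did not overlap. Among the mdx myotube cultures, number 2 had the most Ddit4 in CPM and also the largest fibroblast marker sum, for each treatment. Its vehicle library summed to 4511 CPM and its aldosterone library to 4889 CPM, where the remaining mdx libraries ranged from 1183 to 2317 CPM. Cultures 1 and 3 went the other way: for each treatment, culture 3 had less Ddit4 than culture 1 but a larger fibroblast sum. The part of the culture make-up in the line differences was not tested further.

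In fibroblasts, 0 of 7 members were called between the lines by edgeR in the vehicle groups (1.1% of all genes) or the aldosterone groups (1.23%). DESeq2 called 0 members in each, beside 457 and 546 genes. In each, 1 member had an unadjusted p below 0.05, beside 1997 and 2308 of 16671 genes. That member was Bnip3, at 55.8, 51.2 and 45.7 CPM in C57 and 60.0, 63.4 and 58.5 CPM in mdx with vehicle medium, a log2 difference of 0.26 (adjusted p = 0.355; 0.27 and adjusted p = 0.295 with aldosterone medium). Of the lists around the members, 2 of 126 genes were called in the vehicle groups: Fst, follistatin, which binds and blocks myostatin and activins, was lower in mdx fibroblasts (19.1 ± 0.925 against 50.9 ± 7.32 CPM, log2 -1.41, adjusted p = 0.0174), and Angptl4, a secreted inhibitor of lipoprotein lipase, was higher (111 ± 6.66 against 79.8 ± 10.2 CPM, log2 0.48, adjusted p = 0.043). In the aldosterone-medium groups 4 of 126 were called: Fst (log2 -1.71, adjusted p = 0.00603) and Tll1 (-0.97, adjusted p = 0.025) were lower in mdx, and Angptl4 (0.47, adjusted p = 0.0425) and Capn1 (0.25, adjusted p = 0.0398) were higher. These genes were named after their values were seen. In myotubes 0 of 127 list genes were called between the lines in the vehicle groups and 0 in the aldosterone groups.

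The profile of Fbxo32 over the 12 myotube libraries was matched most closely by Pdk4, which encodes a kinase that shuts off pyruvate dehydrogenase. Likeness was measured as the root mean square difference of log2 CPM after each gene was centred on its own mean, over 10411 other protein-coding genes with at least 5 CPM on average. For Pdk4 this difference was 0.0366, where the spread of Fbxo32 itself was an SD of 0.295; the next genes, 1110002E22Rik and Dusp13, a dual-specificity phosphatase gene, stood at 0.0833 and 0.0845. In C57 vehicle, Pdk4 stood at 885, 672 and 721 CPM where Fbxo32 stood at 139, 100 and 114 CPM, and in mdx vehicle at 504, 488 and 730 CPM where Fbxo32 stood at 80.9, 80.4 and 115 CPM. Both genes were highest in C57 vehicle culture 1 and lowest in mdx aldosterone culture 2. In the 12 fibroblast libraries Pdk4 ranked only 5454 of 10467 genes by the same measure, with a difference of 0.256 (SD of Fbxo32 there 0.224). The libraries share their cultures, line and myotube content, and these values are a description.

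**Figure D5:**
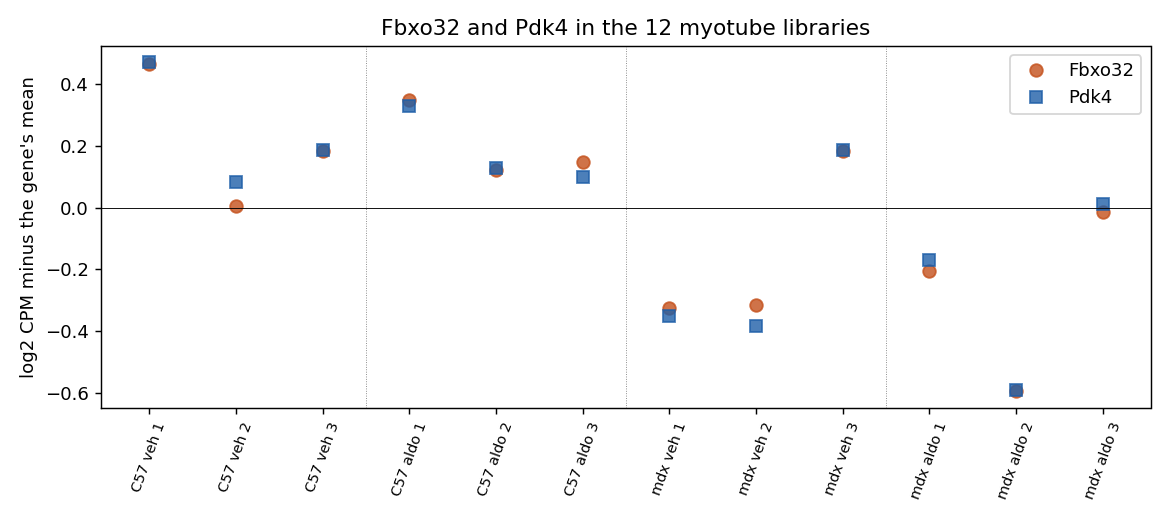
Log2 CPM of Fbxo32 (orange circles) and Pdk4 (blue squares) minus each gene's mean (y axis) in the 12 myotube libraries (x axis, by line, treatment and culture number). The points of both genes nearly coincide in each library, with the highest pair in C57 vehicle culture 1 and the lowest in mdx aldosterone culture 2.

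The nearest profiles to Trim63 were those of Dok7, an adaptor of the neuromuscular junction (0.0556), Usp28, a deubiquitinase (0.0586), and Hspb7, a small heat shock protein (0.0637), against an SD of Trim63 of 0.215. For Foxo1 they were Tbc1d8 (0.0585), Slc22a23 (0.06) and Xpo7 (0.0626), against an SD of 0.152. For Mstn they were Mycl (0.276), Strip2 (0.326) and St8sia2 (0.349), against an SD of 0.785. Relative to its own spread, the Fbxo32 profile had the closest match of the 4 genes examined.

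For the unpaired aldosterone test in C57 myotubes, simulated counts with known changes gave a recovery of 21.5% of 200 genes changed 1.5-fold, 53% at 2-fold and 77% at 3-fold. The changed genes were drawn at any level, and the simulated libraries shared no culture deviations. With 200 changed genes the adjusted threshold is easier to pass than in the real comparison, which called 2 genes. These shares therefore do not give the recovery of the members, and the paired fit was not simulated. RNA was taken at a single time, after the hormone had been withdrawn, and earlier changes were not measured.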

How the data were processed

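Gene counts of 24 libraries were deposited by the authors as raw counts, made with featureCounts 1.5.0-p3 on mm39, per the submitters' processing notes; for the aligner and the annotation release: not given in the sources used here. Libraries were non-directional, per the labels' protocols, so reads of overlapping antisense genes cannot be told apart. Other deposited values were not used. Groups came from the sample labels. Counts were fitted with edgeR 4.0.16 (limma 3.58.1, R 4.3.3): filterByExpr, TMM scaling, robust quasi-likelihood fit and test over all genes kept (15763 in myotubes, 16671 in fibroblasts, 17864 in both), Benjamini-Hochberg adjustment, called below 0.05. All groups of a cell type shared 1 fit; fits over both cell types used all 24 libraries. Printed CPM and RPKM were computed from the counts with TMM factors over 24 libraries; the tests used the scaling of their own fit. The 95% intervals are approximate, from the log2 change, its F statistic and the degrees of freedom.

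Same-numbered vehicle and aldosterone myotube cultures deviated together (correlation of deviations from group means 0.359 to 0.704 in C57 and 0.482 to 0.673 in mdx). Their numbers were therefore taken as pairing them, which no label states. Between different numbers the highest correlation was 0.350 in C57 (vehicle 2 with aldosterone 3) and -0.161 in mdx. C57 cultures 2 and 3 are thus hardly told apart, with pair 3 at 0.359. In fibroblasts the same-numbered correlations were -0.0176 to 0.121 in C57 and 0.106 to 0.299 in mdx. The highest between different numbers there were 0.156 in C57, above every same-numbered value, and 0.0763 in mdx. Alternatives were DESeq2 1.42.0, RLE scaling, no filter, each library left out and a replicate block. The test was tried on simulated data. Every member is named; of each list, up to 3 called genes with the smallest adjusted p (2 with the largest change between cell types, of which 1 gene is not reported here), and the 3 nearest profiles of 4 members. The members and lists were chosen with earlier results of these data known.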

Additional observations from a re-analysis of the deposited data

How the results depend on the processing

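Over 2928 values of single members under the alternatives, 2895 kept their direction where called and their side of the threshold. A call was lost by 16 and gained by 17, and 0 reversed among values called in either fit. Direction was not compared where neither fit called the member, and such values did change sign. Without pairing, the aldosterone change of Mstn in mdx myotubes ran from -0.78 to 0.92 with single libraries left out. That of Fbxo32 in C57 myotubes ran from -0.13 to 0.11. Of 352 counts of called members, 341 stayed within 1.5 times the main count and 11 did not. With a replicate block the myotube aldosterone counts of members stayed at 0, and became 1 in C57 without C57 culture 1 (Ddit4) or C57 culture 2 (Fbxo30) and 1 in the mean without C57 culture 2 (Fbxo30); leaving out cultures in turn therefore gave 0 to 1. Without a block, leaving out any library kept all myotube counts at 0. In fibroblasts the replicate block kept 0, and without mdx pair 2 it called 1 member in C57 (Foxo3) and 4 in the mean (Fbxo32, Foxo1, Foxo3 and Ddit4, with 1786 genes called in all); without C57 pair 2 it called 1 (Ddit4). DESeq2 called 1 member (Ddit4) in that mean, and leaving out single libraries gave 0 to 2. Between lines in myotubes, DESeq2 called 1 member in the aldosterone groups (Ddit4), and the replicate block with the number as an additive term called 1 in the vehicle groups (Trim63, adjusted p = 0.0344) and 2 in the aldosterone groups (Trim63, 0.0443; Ddit4, 0.04); no label ties these numbers across lines, and it called 433 and 397 genes in place of 57 and 49. The cause of these changes was not tested. Counts between cell types stayed at 7 with a block; in mdx the count was 6 without the filter on low counts, and leaving out single libraries gave 5 to 7, the lowest without mdx vehicle myotube replicate 1, which lost Foxo1 and Fbxo30. Foxo1 between mdx cell types was lost without C57 aldosterone myotube replicate 3, mdx vehicle myotube replicate 1 or 3, mdx aldosterone myotube replicate 1 or 3, C57 vehicle fibroblast replicate 2 or 3, C57 aldosterone fibroblast replicate 1, mdx vehicle fibroblast replicate 1 or 2, or any of the 3 mdx aldosterone fibroblast libraries; Foxo3 was gained there without mdx vehicle fibroblast replicate 1 (adjusted p = 0.0475). Depth limits Trim63 and Mstn in fibroblasts, with at most 18 and 14 counts per library.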
